A study of Sus scrofa with 11 samples.

Results

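The 9 genes of the melanocyte pigment programme, TYR, TYRP1, DCT, PMEL, MLANA, MITF, SLC45A2, OCA2 and MC1R, were taken by symbol from the deposited expression table, and 9 of 9 were found among its 30376 genes. The table gives FPKM values, that is, reads relative to the length of the gene and the size of the library, in 11 full-thickness skin wounds of female Yucatan minipigs, each excised at day 10 as 1 punch and sequenced as 1 poly-A library. The diabetic group holds 7 wounds of 1 minipig made diabetic with the beta cell toxin streptozotocin, kept on insulin and taken off it before wounding. The non-diabetic group holds 4 wounds of 1 minipig that had no streptozotocin, and both animals were wounded on the back by the same procedure. With 1 animal per group, diabetes and every other difference between the 2 animals cannot be told apart. Each p-value treats wounds of the same animal as replicates and does not cover how animals vary. The diabetic animal was 6 months old when diabetes was induced, and the age of the other animal and the skin colour of both are not given in the sources used here.

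Melanocytes are neural crest-derived cells that sit among the basal keratinocytes of the epidermis and in hair follicles. They build melanin inside melanosomes, lysosome-related organelles, and hand these over to keratinocytes. The receptor MC1R signals through cyclic AMP to the transcription factor MITF, which switches on the pigment enzymes and structural proteins. In skin wounds, pigment cells return from the wound edge and from remaining hair follicles. In a bulk library, fewer melanocytes and less RNA per melanocyte cannot be told apart.

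The 4 genes that carry the pattern described here are encoded at separate loci of Sscrofa11.1. TYR lies at chr9:22517047-22604290 on the plus strand, TYRP1 at chr1:209725698-209745141, DCT at chr11:63584865-63647486 and PMEL at chr5:21355611-21365609, the last 3 on the minus strand. The other members are MLANA at chr1:216230472-216247171, SLC45A2 at chr16:19958315-20002198 and MC1R at chr6:181225-182187 on the minus strand, and OCA2 at chr15:56657648-56869920 and MITF at chr13:51177356-51422096 on the plus strand. Their 250 bases before the annotated gene start are printed 5′ to 3′ on the gene's strand, from the RefSeq genome sequence of that build, because these 4 genes moved together across the wounds. Capitals mark matches, on either strand, to 4 motifs. One is TCATGTG, the core of the M-box bound by MITF, and the E-box CATGTG is contained in it. The others are the E-box CACGTG and the SOX motif ACAAAG. The windows are chr9:22516797-22517046, chr1:209745142-209745391, chr11:63647487-63647736 and chr5:21365610-21365859, in the order TYR, TYRP1, DCT and PMEL.
TYR: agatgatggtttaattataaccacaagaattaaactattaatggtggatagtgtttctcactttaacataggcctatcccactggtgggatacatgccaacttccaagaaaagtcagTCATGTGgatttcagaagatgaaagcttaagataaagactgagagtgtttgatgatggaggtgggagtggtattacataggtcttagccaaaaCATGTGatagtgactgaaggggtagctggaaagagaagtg
TYRP1: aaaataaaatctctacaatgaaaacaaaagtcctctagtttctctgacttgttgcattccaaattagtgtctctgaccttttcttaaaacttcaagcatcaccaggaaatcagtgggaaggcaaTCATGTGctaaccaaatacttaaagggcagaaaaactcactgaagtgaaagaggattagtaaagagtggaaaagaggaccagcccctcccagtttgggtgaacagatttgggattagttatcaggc
DCT: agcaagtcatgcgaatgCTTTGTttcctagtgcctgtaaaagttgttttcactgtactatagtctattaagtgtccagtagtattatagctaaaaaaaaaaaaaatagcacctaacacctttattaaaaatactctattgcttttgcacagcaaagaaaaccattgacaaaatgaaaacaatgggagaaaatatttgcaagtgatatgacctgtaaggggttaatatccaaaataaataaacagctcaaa
PMEL: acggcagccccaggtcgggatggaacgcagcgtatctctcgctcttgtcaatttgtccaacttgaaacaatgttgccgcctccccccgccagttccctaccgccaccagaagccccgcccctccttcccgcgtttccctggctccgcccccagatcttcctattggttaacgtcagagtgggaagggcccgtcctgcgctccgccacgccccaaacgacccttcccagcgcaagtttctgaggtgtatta

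TCATGTG was present in the windows of TYR, 133 to 127 bases before the start, and of TYRP1, 126 to 120 bases before it, and in 2.415% of the 30353 windows of the same length. TYR held a further CATGTG 40 to 35 bases before the start, and CATGTG was found in 10.35% of windows. DCT held the SOX motif, read as CTTTGT, 233 to 228 bases before the start, and 13.21% of windows held it on either strand. PMEL held none of the 4 motifs. Among the other members, OCA2 held the SOX motif 232 to 227 bases before the start. MITF held CATGTG, read as CACATG, 187 to 182 bases before the start. These matches were therefore not particular to the genes that moved together. CACGTG was found in none of the 9 members' windows and in 5.453% of all windows. A match is a string of letters in this window and was not tested for binding.

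TYR, TYRP1, DCT and PMEL were at trace levels in 6 of the 7 diabetic wounds, were higher in diabetic replicate 6 and in most non-diabetic wounds, and were highest in non-diabetic replicates 3 and 4. MITF and SLC45A2 varied far less over the 11 wounds, from 0.687 to 1.09 FPKM and from 0.203 to 0.558 FPKM. MLANA, OCA2 and MC1R were low throughout, with up to 92, 40 and 17 reads in a wound, respectively. Depth was similar in both groups, at 28314785 to 40168372 reads on genes in diabetic wounds and 32961018 to 36872400 in non-diabetic wounds, and 1 read on a gene of 2 kb was worth 0.0112 to 0.0194 FPKM.

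**Figure D1:**
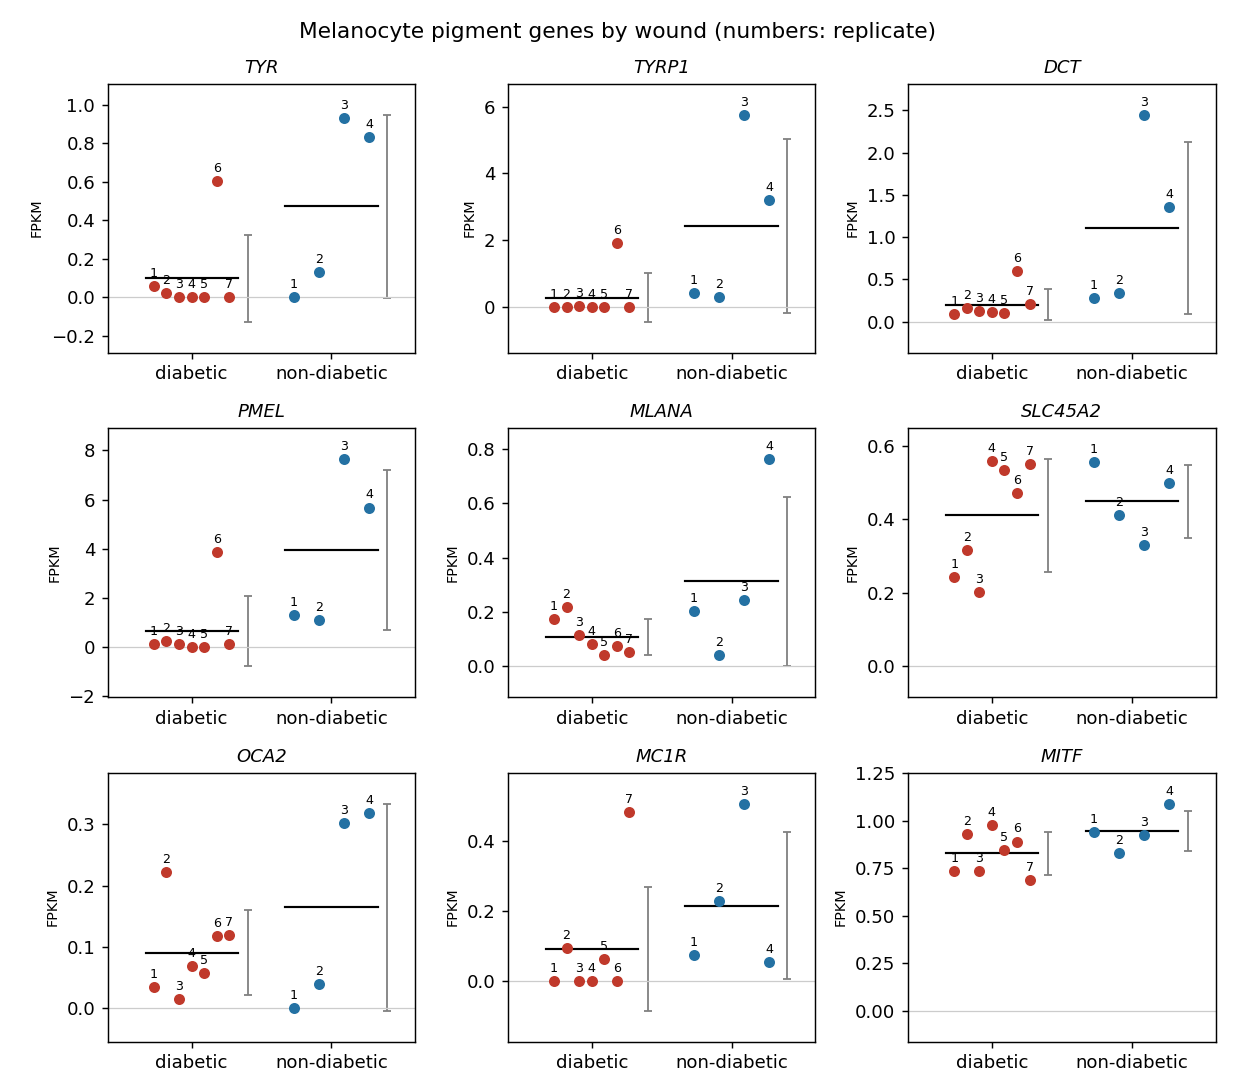
FPKM (y axis, linear, 1 scale per gene) of the 9 pigment genes in 7 diabetic wounds (red) and 4 non-diabetic wounds (blue), with each point numbered by replicate, the group mean as a black line and 1 SD either side of it as a grey bar. For TYR, TYRP1, DCT and PMEL, diabetic replicate 6 stands apart from the other diabetic wounds and non-diabetic replicates 3 and 4 are the highest, whereas MITF runs from 0.687 to 1.09 FPKM over all wounds.

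The melanin-synthesising enzymes were described first. Tyrosinase, the rate-limiting enzyme encoded by TYR (1946 bases in the table), had 0.0575, 0.0230, 0, 0, 0, 0.606 and 0 FPKM in diabetic replicates 1 to 7, and 0, 0.129, 0.930 and 0.831 FPKM in non-diabetic replicates 1 to 4. The groups overlapped, because diabetic replicate 6 was above non-diabetic replicates 1 and 2 and non-diabetic replicate 1 had no read. In wounds with no TYR read, a floor of 3 reads per library would allow up to 0.0392 to 0.0598 FPKM. TYR was 0.0981 ± 0.225 FPKM (SD, n = 7) in the diabetic animal against 0.473 ± 0.476 FPKM (SD, n = 4) in the non-diabetic one. The difference in mean log2(FPKM + 0.5), diabetic minus non-diabetic, was -0.62, with a two-sided exact permutation p = 0.0909 over the 330 splits of the wounds. All exact permutation p-values of single genes are unadjusted.

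TYRP1, which encodes the tyrosinase-related protein that acts late in the making of brown-black eumelanin, was detected in 2 of 7 diabetic wounds and in 4 of 4 non-diabetic wounds. It had 0.0351 FPKM in diabetic replicate 3, 1.92 FPKM in diabetic replicate 6 and no read in the other 5, where 3 reads would be 0.0232 to 0.0401 FPKM. Non-diabetic replicates 1 to 4 had 0.410, 0.293, 5.76 and 3.20 FPKM. Every diabetic wound but replicate 6 was therefore below every non-diabetic wound. The difference in mean log2(FPKM + 0.5) was -1.68 (exact permutation p = 0.0273), from 0.279 ± 0.722 FPKM (SD, n = 7) to 2.42 ± 2.60 FPKM (SD, n = 4).

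DCT, the dopachrome tautomerase that acts between TYR and TYRP1 in the pathway and is already expressed in melanocyte precursors, had reads in all 11 wounds. Its levels were 0.0899, 0.161, 0.12, 0.119, 0.104, 0.604 and 0.205 FPKM in diabetic replicates 1 to 7 and 0.284, 0.339, 2.45 and 1.36 FPKM in non-diabetic replicates 1 to 4. Again only diabetic replicate 6 reached into the non-diabetic range. The difference in mean log2(FPKM + 0.5) was -1.01 (exact permutation p = 0.0242), with 0.201 ± 0.182 FPKM (SD, n = 7) in the diabetic animal against 1.11 ± 1.02 FPKM (SD, n = 4) in the non-diabetic one.

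PMEL, whose protein forms the amyloid fibrils on which melanin is laid down, was the member with the highest level in any wound. It had 0.126, 0.234, 0.143, 0.0236, 0.0114, 3.85 and 0.131 FPKM in diabetic replicates 1 to 7 and 1.29, 1.12, 7.65 and 5.68 FPKM in non-diabetic replicates 1 to 4. The 6 low diabetic wounds rested on 1 to 28 reads each, and diabetic replicate 6 on 271. The groups overlapped through diabetic replicate 6 alone. PMEL was 0.646 ± 1.42 FPKM (SD, n = 7) in the diabetic animal against 3.93 ± 3.25 FPKM (SD, n = 4) in the non-diabetic one.

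PMEL overlaps DGKA, a diacylglycerol kinase gene on the opposite strand, and whether the read counting used strand is not given in the sources used here. DGKA was at 7.74 ± 1.43 FPKM (SD, n = 7) in the diabetic animal against 5.82 ± 1.06 FPKM (SD, n = 4) in the non-diabetic one, so its mean was higher where that of PMEL was lower. TYR likewise overlaps LOC110255412, a long non-coding RNA gene on the other strand, which had 4 to 26 reads in a wound.

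MLANA, a melanosome protein that works with PMEL, did not follow the same order of wounds. It had 0.172, 0.217, 0.115, 0.0815, 0.0396, 0.0738 and 0.0502 FPKM in diabetic replicates 1 to 7 and 0.203, 0.0406, 0.241 and 0.763 FPKM in non-diabetic replicates 1 to 4. Diabetic replicate 6, high for PMEL, was among the low wounds for MLANA, and only non-diabetic replicate 4 stood clear of the rest. The means were 0.107 ± 0.0657 FPKM (SD, n = 7) and 0.312 ± 0.313 FPKM (SD, n = 4), and the difference in mean log2(FPKM + 0.5) was -0.35 (exact permutation p = 0.0879).

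SLC45A2, a transporter of the melanosome membrane, had 0.242, 0.317, 0.203, 0.558, 0.535, 0.472 and 0.550 FPKM in diabetic replicates 1 to 7. Non-diabetic replicates 1 to 4 had 0.557, 0.411, 0.331 and 0.50 FPKM. All non-diabetic values lay within the diabetic range. The means were 0.411 ± 0.153 FPKM (SD, n = 7) and 0.450 ± 0.0995 FPKM (SD, n = 4).

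OCA2, the chloride channel of the melanosome, had 0.0346, 0.222, 0.0157, 0.0683, 0.0568, 0.118 and 0.12 FPKM in diabetic replicates 1 to 7 and 0, 0.0389, 0.302 and 0.318 FPKM in non-diabetic replicates 1 to 4. The 2 highest wounds were again non-diabetic replicates 3 and 4, but non-diabetic replicate 1 was the lowest of all 11, and its floor of 3 reads would be 0.0324 FPKM. The means were 0.0907 ± 0.0698 FPKM (SD, n = 7) and 0.165 ± 0.169 FPKM (SD, n = 4), and the difference in mean log2(FPKM + 0.5) was -0.14 (exact permutation p = 0.403).

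MC1R, the melanocortin receptor, rested on 46 reads in all 11 wounds together. It had no read in 4 diabetic wounds, 0.0930, 0.0636 and 0.484 FPKM in diabetic replicates 2, 5 and 7, and 0.0726, 0.229, 0.507 and 0.0533 FPKM in non-diabetic replicates 1 to 4. In the 4 wounds without a read, 3 reads would be 0.0793 to 0.119 FPKM, so that most differences in MC1R were not detectable at this depth. The difference in mean log2(FPKM + 0.5) was -0.27 (exact permutation p = 0.294).

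MITF, the master regulator of the lineage, which is also made by osteoclasts, mast cells and other non-pigment cells, was the steadiest member. It had 0.734, 0.929, 0.734, 0.977, 0.845, 0.891 and 0.687 FPKM in diabetic replicates 1 to 7 and 0.942, 0.832, 0.925 and 1.09 FPKM in non-diabetic replicates 1 to 4, from 301 to 722 reads per wound. Of the 4 non-diabetic values, 3 lay within the diabetic range. The means were 0.828 ± 0.111 FPKM (SD, n = 7) and 0.947 ± 0.107 FPKM (SD, n = 4). These values count all MITF isoforms over 16995 bases of gene length, so the melanocyte isoform was not separated from the others.

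The question of the study was how transcription differed between diabetic and non-diabetic wounds. All 9 pigment genes had a lower mean log2 level in diabetic wounds, beside 49.9% of the 19413 genes with a read in at least 6 wounds, and their median difference was -0.35 against 0.000507 over those genes. Of the 9, 3 (PMEL, DCT and TYRP1) had an exact permutation p under 0.05 with the lower mean in diabetic wounds, beside 9.51% of the 19413 genes, and none of the 9 did in the higher direction, beside 7.2%. In none of the 9 members were all diabetic wounds below all non-diabetic wounds, beside 2.74% of those genes. Leaving diabetic replicate 6 aside, the other 6 diabetic wounds were below every non-diabetic wound for DCT, PMEL and TYRP1, a separation seen in 3.28% of those genes. That wound was set aside after the values were seen, so this share is a description.

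**Figure D2:**
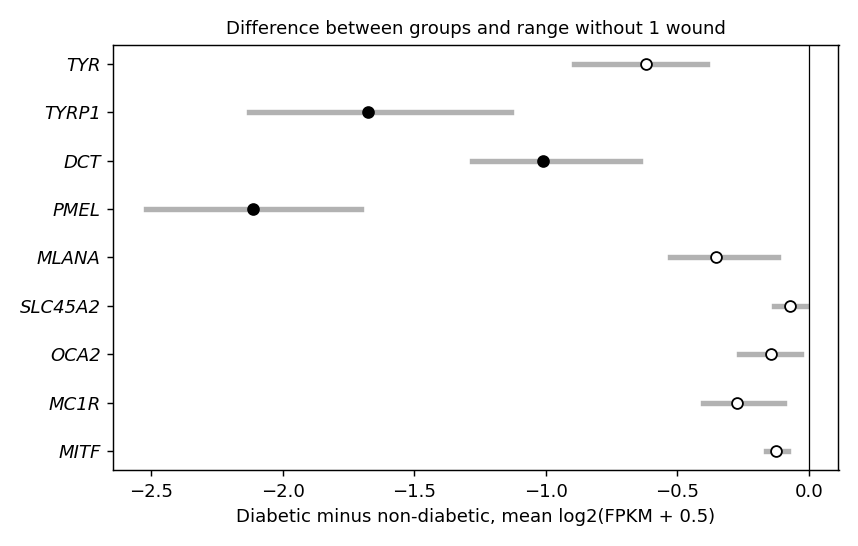
Difference in mean log2(FPKM + 0.5), diabetic minus non-diabetic (x axis), for each pigment gene, with the grey bar giving the lowest and highest value when 1 wound was left out and filled points marking an exact permutation p under 0.05. The points run from -2.11 for PMEL to -0.07 for SLC45A2, and all 9 lie below 0.

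Only PMEL, SLC45A2 and MITF passed the filter on low values (0.5 FPKM in at least 4 libraries) and entered the limma fit over 13956 genes. PMEL passed in 5 libraries, the 4 non-diabetic wounds and diabetic replicate 6. Its entry thus depended on the group where it was high, and its fold change is read with that limit. None of the 3 was called (Benjamini-Hochberg adjusted p under 0.05 with a log2 fold change past 0.5 either way), beside 3.0% of all genes tested (188 or 1.35% higher and 231 or 1.66% lower in diabetic wounds). PMEL had a log2 fold change of -2.11 (SE 0.63, limma adjusted p = 0.0958; exact permutation p = 0.0121). MITF had a log2 fold change of -0.13 (SE 0.10, limma adjusted p = 0.563), and SLC45A2 of -0.07 (SE 0.15, limma adjusted p = 0.848), both within the spread between wounds. At an unadjusted p under 0.05 with the same fold, 486 genes were higher and 509 lower, and PMEL was among the latter.

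Which wounds were included decided several of these calls. Without diabetic replicate 6, PMEL was called lower in diabetic wounds, with a log2 fold change of -2.52 (SE 0.43, limma adjusted p = 0.0144), beside 1.57% of genes called lower in that fit, and TYR reached an exact permutation p of 0.0333. Without non-diabetic replicate 3 or 4, DCT no longer passed (exact permutation p = 0.0667 for either) and neither did TYRP1 (exact permutation p = 0.0750). TYRP1 also missed the threshold when any 1 diabetic wound other than replicate 6 was left out (exact permutation p = 0.0619). Without non-diabetic replicate 1, which had no TYR read, TYR had an exact permutation p of 0.0167. MLANA passed only without non-diabetic replicate 2 (exact permutation p = 0.0167) and MC1R only without diabetic replicate 7 (exact permutation p = 0.0238). In the limma fit without a filter on low values, the adjusted p over all genes was 0.174 for DCT and 0.227 for TYRP1.

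Members differed in how unevenly their reads were spread over the wounds. The 3 wounds with the most reads held 94.4% of the reads of TYRP1, 91.8% of those of TYR, 85.8% of those of PMEL and 76.8% of those of DCT. The same share was 35.8% for both MITF and SLC45A2. Over the 11 wounds, the log2 levels of TYR, TYRP1, DCT and PMEL had pairwise Pearson r of 0.934 to 0.977, and r between these 4 and the other 5 members ran from 0.0016 for TYR with SLC45A2 to 0.765 for DCT with OCA2. These 4 genes were grouped after their values were seen, and the wounds behind each r share an animal within each group.

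Added together, TYR, TYRP1, DCT and PMEL had 532 reads in diabetic replicate 6 and 19 to 68 reads in the other diabetic wounds. They had 176, 187, 1807 and 1297 reads in non-diabetic replicates 1 to 4. All 4 genes had their 3 highest wounds in diabetic replicate 6 and non-diabetic replicates 3 and 4, an arrangement found in 0.417% of the 19413 genes. This arrangement was chosen after the values were seen and is a description.

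The order of the members by mean level per gene length differed between groups. In non-diabetic wounds it ran PMEL (3.93 FPKM), TYRP1 (2.42), DCT (1.11), MITF (0.947), TYR (0.473), SLC45A2 (0.450), MLANA (0.312), MC1R (0.215) and OCA2 (0.165). In diabetic wounds it ran MITF (0.828 FPKM), PMEL (0.646), SLC45A2 (0.411), TYRP1 (0.279), DCT (0.201), MLANA (0.107), TYR (0.0981), MC1R (0.0915) and OCA2 (0.0907). The ranges of all neighbours in both orders overlapped. Within single wounds, PMEL was above TYRP1 in 4 of 4 non-diabetic wounds and MITF was above SLC45A2 in 11 of 11 wounds. The ratio of DCT to PMEL was 0.220 to 0.320 in the 4 non-diabetic wounds and 0.157 in diabetic replicate 6. In the other 6 diabetic wounds that ratio ran from 0.687 to 9.11, on 1 to 28 PMEL reads.

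**Figure D3:**
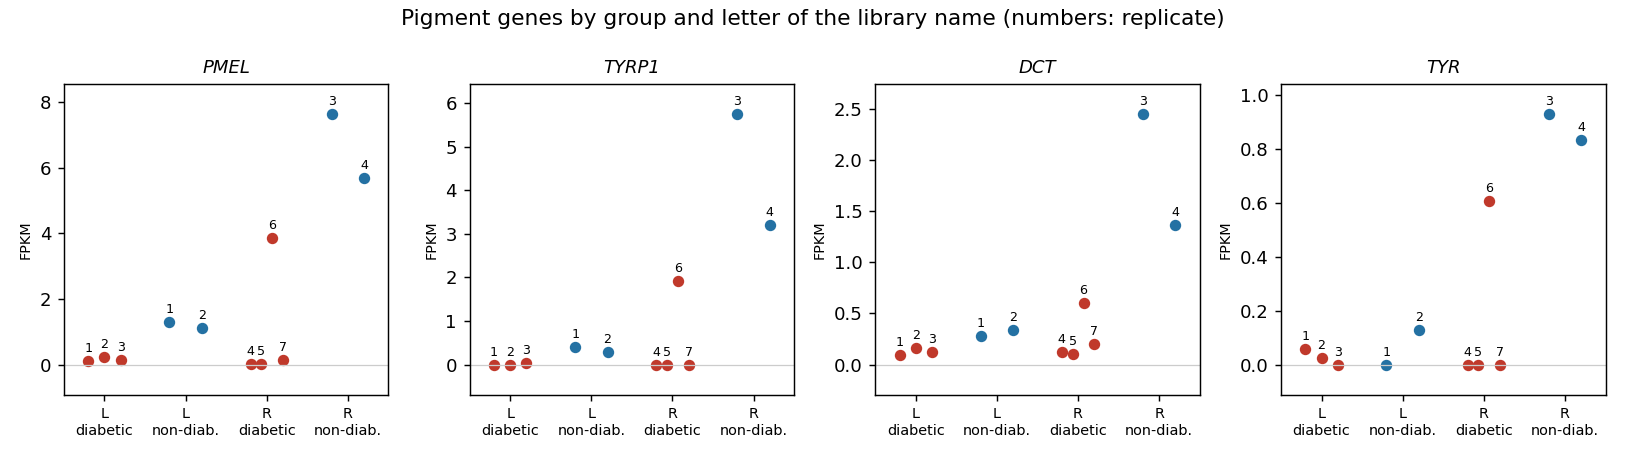
FPKM (y axis) of PMEL, TYRP1, DCT and TYR in diabetic (red) and non-diabetic (blue) wounds, split on the x axis by whether the library name begins with L or R, with points numbered by replicate. The 3 highest wounds of each gene are all R wounds, and the L wounds of PMEL run from 0.126 to 0.234 FPKM in the diabetic and from 1.12 to 1.29 FPKM in the non-diabetic animal.

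Library names begin with L or R, letters that the labels do not explain. The 3 wounds highest in TYR, TYRP1, DCT and PMEL were all R wounds, but the other R wounds, diabetic replicates 4, 5 and 7, were low. Among L wounds, PMEL was at 0.126 to 0.234 FPKM over 3 diabetic and 1.12 to 1.29 FPKM over 2 non-diabetic wounds (difference in mean log2 -1.35, exact permutation p = 0.1, the smallest this design allows). Among R wounds the means of PMEL were 1.00 FPKM over 4 diabetic and 6.66 FPKM over 2 non-diabetic wounds (difference in mean log2 -2.94, exact permutation p = 0.0667, the smallest this design allows). The groups did not overlap within either letter for PMEL, TYRP1 and DCT. They also did not overlap for SLC45A2 among L wounds, and for TYR, MLANA and OCA2 among R wounds. The share of all genes that separate like this was not counted, so these separations are a description. TYRP1 differed by -0.73 among L and -2.70 among R wounds and DCT by -0.38 and -1.67, on the same scale.

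TYR, MC1R and MITF had the lower mean in diabetic wounds within both letters, with overlapping groups except for TYR among R wounds. MLANA, OCA2 and SLC45A2 did not keep their direction. MLANA was higher on average in diabetic L wounds (difference in mean log2 0.11, exact permutation p = 0.6) and lower in diabetic R wounds (-0.79, exact permutation p = 0.0667). OCA2 had 0.17 among L wounds (exact permutation p = 0.7) and -0.46 among R wounds (exact permutation p = 0.0667). SLC45A2 had -0.38 among L wounds (exact permutation p = 0.1) and 0.17 among R wounds (exact permutation p = 0.133). Whether these differences themselves differed between letters was not tested.

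The wounds diabetic replicate 4 and non-diabetic replicate 1 held little keratinocyte RNA, and were chosen for this from earlier results of these data. The mean log2(FPKM + 0.5) of 25 keratinocyte genes was 0.94 in diabetic replicate 4 and 2.07 in non-diabetic replicate 1, against 4.93 to 6.19 in the other 9 wounds. Of the 25, 23 were lowest of their group in both of these wounds. No pigment gene was below every other wound of its group in both, with ties not counted, beside 12.0% of the 19413 genes, and none had both wounds below all others, beside 8.6%. TYR, TYRP1 and MC1R could not count towards either. They had no read in diabetic replicate 4 and were tied there with 3, 4 and 3 other diabetic wounds. TYR, TYRP1, DCT, PMEL, MLANA, OCA2 and MC1R were nevertheless at or below the median of their group's other wounds in both. For PMEL this was 0.0236 against a median of 0.137 FPKM in diabetic replicate 4. In non-diabetic replicate 1 it was 1.29 against 5.68 FPKM. MITF and SLC45A2 were above that median in both wounds. The share of all genes at or below it in both was not counted. With 1 such wound per group no test was made.

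**Figure D4:**
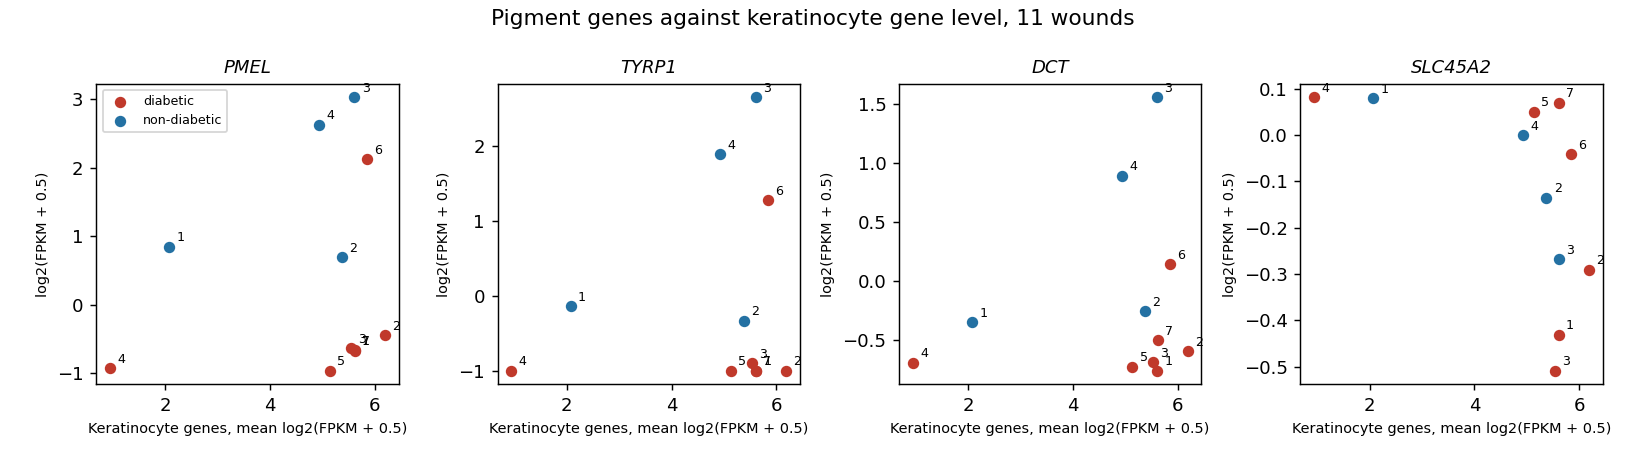
Log2(FPKM + 0.5) of PMEL, TYRP1, DCT and SLC45A2 (y axes) against the mean log2(FPKM + 0.5) of 25 keratinocyte genes (x axes) in 7 diabetic (red) and 4 non-diabetic (blue) wounds, numbered by replicate. Diabetic replicate 4 at 0.94 and non-diabetic replicate 1 at 2.07 lie far to the left, and of these genes only DCT in non-diabetic replicate 1 lies below all other wounds of its group, while SLC45A2 is the highest of its group in both wounds.

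In the keratinocyte-poor wounds, SLC45A2 was the highest of its group, at 0.558 FPKM in diabetic replicate 4 and 0.557 FPKM in non-diabetic replicate 1. MITF was also the highest of its group in diabetic replicate 4, at 0.977 FPKM, and at 0.942 FPKM in non-diabetic replicate 1, where only non-diabetic replicate 4 was higher. PMEL had 0.0236 FPKM in diabetic replicate 4, above diabetic replicate 5, but on 2 reads against 1, both under the floor of 3 reads. In non-diabetic replicate 1 it had 1.29 FPKM on 99 reads, just above non-diabetic replicate 2 on 95 reads. Non-diabetic replicates 3 and 4 had 712 and 592 PMEL reads. So in each of these 2 wounds only 1 other wound of the group was lower in PMEL.

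DCT was lowest of its group in non-diabetic replicate 1 at 0.284 FPKM, whereas in diabetic replicate 4, at 0.119 FPKM, 2 other diabetic wounds were lower. TYR and OCA2 had no read in non-diabetic replicate 1. TYR also had none in diabetic replicate 4, where it was tied with 3 other diabetic wounds. With the keratinocyte level as a covariate, PMEL had a log2 fold change of -2.23 (SE 0.60, limma adjusted p = 0.0590). Without both wounds the log2 fold change of PMEL was -2.33 (limma adjusted p = 0.144), and TYR had a difference in mean log2 of -0.86 (exact permutation p = 0.0238).

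The lists of related genes were examined in the same limma fit. Of 13 regulators of the melanocyte lineage, 13 were in the table, 12 passed the filter and none was called in either direction, beside 3.0% of all genes tested. Their median log2 fold change was 0.04, beside 0.01 over all genes tested. The 2 most abundant were SNAI2, a neural crest zinc finger factor, at 71.4 and 58.2 FPKM in diabetic and non-diabetic wounds (limma adjusted p = 0.501), and ZEB2, at 8.15 and 10.5 FPKM (limma adjusted p = 0.243). These factors are also made by fibroblasts and other cells of a wound.

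Several regulators were singled out after their values were seen. SOX10, the neural crest factor that melanocytes share with Schwann cells, was at 0.444 ± 0.183 FPKM (SD, n = 7) in the diabetic animal against 0.345 ± 0.205 FPKM (SD, n = 4) in the non-diabetic one (limma adjusted p = 0.711). In diabetic replicate 6 it had 0.501 FPKM, below diabetic replicates 2, 3, 5 and 7, which had little PMEL. In non-diabetic replicates 1 to 4 SOX10 had 0.149, 0.186, 0.511 and 0.532 FPKM. Within that animal it was therefore higher in the 2 wounds with the most PMEL. KIT, the receptor for stem cell factor, was at 1.07 ± 0.430 FPKM (SD, n = 7) and 1.51 ± 0.530 FPKM (SD, n = 4) (limma adjusted p = 0.471). The 3 wounds highest in KIT were those highest in PMEL. They had 1.56 FPKM in diabetic replicate 6 and 2.01 and 1.84 FPKM in non-diabetic replicates 3 and 4. Diabetic replicate 1, which had little PMEL, was close behind at 1.51 FPKM. KITLG, the ligand gene of KIT, was at 8.04 and 7.94 FPKM (limma adjusted p = 0.960).

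In the melanocortin axis, 10 of 10 genes were in the table, 3 passed the filter and none was called, beside 3.0% of all genes tested. Their median log2 fold change was 0.11. The most abundant were MGRN1, a ubiquitin ligase, at 15.5 and 14 FPKM (limma adjusted p = 0.848), and ATRN, attractin, at 3.71 and 4.14 FPKM (limma adjusted p = 0.688). POMC, the precursor of the melanocortin ligands, was the third that passed, at 1.66 and 1.14 FPKM (limma adjusted p = 0.222).

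For melanosome biogenesis and transport, 29 of 30 genes were in the table, 26 passed the filter and none was called, beside 3.0% of all genes tested. Of the 26, 13 had a lower mean in diabetic wounds, beside 47.7% of all genes tested, with a median log2 fold change of 0.02. CD63, a tetraspanin of late endosomes, was at 400.2 and 381.9 FPKM (limma adjusted p = 0.831). GPNMB, a PMEL-related glycoprotein that macrophages also make, was at 158.7 and 108.9 FPKM (limma adjusted p = 0.267), so its mean was higher in diabetic wounds where that of PMEL was lower.

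A pair of melanosome genes under the filter, chosen after their values were seen, had their highest values in the same 3 wounds as PMEL. TRPM1, a cation channel gene of melanocytes, had 0.128 FPKM in diabetic replicate 6, 0.383 in non-diabetic replicate 3, 0.248 in non-diabetic replicate 4 and at most 0.0375 in the others. SLC24A5, a melanosomal cation exchanger, had 0.0371, 0.0839 and 0.0750 FPKM in those 3 wounds and no read elsewhere, at no more than 6 reads in a wound. Because the pair was picked by this pattern, no test between the groups is given for it.

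Markers of other cells that make MITF, SOX10 or KIT were read in the same way. Schwann cell genes (7 of 13 past the filter) and mast cell genes (4 of the 8 found in the table) had no call, beside 3.0% of all genes tested. Their median log2 fold changes were 0.16 and 0.46. The most abundant Schwann cell genes were S100B and NGFR, at 4.63 and 4.35 FPKM in diabetic against 3.18 and 2.16 FPKM in non-diabetic wounds (limma adjusted p = 0.220 and 0.0540). The summed level of the Schwann cell list was 13.5 to 27.0 FPKM in diabetic against 13.3 to 15.4 FPKM in non-diabetic wounds. That of the mast cell list was 5.56 to 16.1 and 4.24 to 6.50 FPKM, with MS4A2 and FCER1A the most abundant and the mast cell protease gene CPA3 listed at 0 in all wounds.

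Of 17 genes of macrophages and osteoclast-like cells, 15 passed the filter and 3 were called, 2 higher and 1 lower, beside 1.35% and 1.66% of all genes tested. CD14 (log2 fold change 0.76, limma adjusted p = 0.0390) and MRC1 (0.73, limma adjusted p = 0.00585) were higher in diabetic wounds, and ATP6V0D2, a proton pump subunit of osteoclasts, was lower (-1.80, limma adjusted p = 0.0135). The summed level of the list was 745.2 to 2748 FPKM in diabetic against 800.0 to 1992 FPKM in non-diabetic wounds. LYZ, the lysozyme gene, gave most of the sum in 9 wounds but was at 38.9 and 57.9 FPKM in the keratinocyte-poor wounds. Without LYZ the sum was 448.8 to 706.3 FPKM in diabetic against 396.4 to 742.1 FPKM in non-diabetic wounds, highest in each group in the keratinocyte-poor wound. Hair follicle genes were scarce, with 3 of 17 past the filter and none called, beside 3.0% of all genes tested. HOXC13 and FOXN1 were the most abundant. The summed hair follicle level was 0.169 to 3.42 FPKM in diabetic against 0.278 to 3.13 FPKM in non-diabetic wounds. Of the 25 keratinocyte genes, 1 was called, near the 3.0% of all genes, namely KRT15, a keratin of basal cells, which was higher in diabetic wounds (log2 fold change 2.50, limma adjusted p = 0.0388). KRT2, singled out after its values were seen, was the only 1 of the 25 highest in the same 3 wounds as PMEL. It had 40.8 FPKM in diabetic replicate 6, 10.1 and 24.1 FPKM in non-diabetic replicates 3 and 4, and at most 3.53 FPKM elsewhere. The part of these cells in the levels of the pigment genes was not tested.

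The genes past the filter whose log2 levels over the 11 wounds were most like those of DCT were GZMB (Pearson r 0.932), MOXD1 (0.920), TSSK6 (0.911), LOC102164231 (0.899) and TPPP (0.874). Of these 5, TSSK6 alone was called lower in diabetic wounds (log2 fold change -0.97, limma adjusted p = 0.0165). For the mean z-score of TYR, TYRP1, PMEL and MLANA the nearest were HERC5 (0.912), TPPP (0.883), MOXD1 (0.879), GZMB (0.876) and GLRX5 (0.869). Each r is the highest of many genes over few wounds that share 2 animals. GZMB, the granzyme B gene of cytotoxic lymphocytes, had 0.861 FPKM in diabetic replicate 6, 4.16 in non-diabetic replicate 3 and 2.56 in non-diabetic replicate 4, and 0.307 to 1.32 FPKM in the other wounds.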

How the data were processed

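RNA from 11 wounds was sequenced as directional poly-A libraries. The authors used fastp for trimming, HISAT2 2.2.1 for alignment to Sscrofa11.1, StringTie 2.2.3 for assembly and featureCounts 2.0.6 for counting, per the labels and the methods of the study. The deposited table holds FPKM per gene. Its formula and the annotation release are not given in the sources used here. FPKM times gene length gave whole reads for 100.0% of values within 0.05 reads, and the reads quoted are these.

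Genes with at least 0.5 FPKM in at least 4 libraries (13956) were fitted on log2(FPKM + 0.5) with limma 3.58.1 in R 4.3.3 (lmFit, eBayes with trend, Benjamini-Hochberg adjustment, group only) and called where adjusted p was under 0.05 and the log2 fold change passed 0.5 either way. These fold changes understate those of low genes. The fit was tested on simulated data. Every pigment gene was also tested for its difference in mean log2(FPKM + 0.5) by two-sided exact permutation of the wounds, whose smallest p over 330 splits is 0.00303. Shares over 19413 genes with a read in at least 6 wounds were counted with the same tests. Promoter windows were read from the RefSeq genome of Sscrofa11.1 with pysam 0.24.0, and protein sequences were not used here.

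The pigment genes, the related lists and the keratinocyte-poor wounds were chosen with earlier results of these data known. All 9 pigment genes were named, with the called genes of each list or else its 2 most abundant, and the 5 genes most correlated with DCT and with the mean z-score of TYR, TYRP1, PMEL and MLANA. A symbol on 2 rows was not assigned to a list. Alternatives varied the filter, pseudocount, scaling, library weights, covariates, wounds included and model.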

Additional observations from a re-analysis of the deposited data

Results flagged for a closer look

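In 5 of the 18 combinations of gene and group examined, 1 wound lay far from the others of its group by Dixon's gap test, a mark that chance gives in about 1 in 20 groups of normally distributed values. The test was made on FPKM, and TYRP1, TYR and MC1R had no read in several diabetic wounds, so that rate need not hold here. Combinations that share a wound are not independent. Diabetic replicate 6 was the wound in 4 of the 5. There PMEL was 3.85 FPKM against at most 0.234 in the other diabetic wounds (gap over range 0.942), and TYRP1 was 1.92 FPKM against at most 0.0351 (0.982). TYR was 0.606 FPKM against at most 0.0575 (0.905), and DCT was 0.604 FPKM against at most 0.205 (0.775). MC1R was 0.484 FPKM in diabetic replicate 7 against at most 0.0930 in the other diabetic wounds (0.808), on 12 reads.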

How the results depend on the processing

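MITF kept its direction and stayed uncalled in 26 of 26 alternatives, and PMEL stayed lower in diabetic wounds in 26 of 26 and was called in 2, with library weights (-2.29, limma adjusted p = 0.0383, beside 2.98% of genes called lower) and without diabetic replicate 6. With 1 wound left out, the log2 fold change of PMEL ran from -2.52 to -1.70 (limma adjusted p 0.0144 to 0.279), with a pseudocount of 0.1 it was -3.29 and with 1 it was -1.58. On recovered reads with voom it was -4.43 (limma adjusted p = 0.0584). The direction turned for SLC45A2 in R wounds alone (0.17), and for MLANA (0.11) and OCA2 (0.17) in L wounds alone. The cause was not tested. DCT passed in 13 of 20 alternatives and TYRP1 in 7 of 20. Among these were L wounds alone and R wounds alone, which could not pass. The smallest exact permutation p possible there was 0.1 and 0.0667. Limma and voom fits judged by adjusted p were also among them. With 1 wound left out, exact permutation p ran from 0.00476 to 0.0667 for DCT and from 0.00476 to 0.0750 for TYRP1. Replicate numbers did not pair the wounds (correlations of same-numbered deviations -0.267, 0.215, 0.0678 and -0.484). A replicate block over replicates 1 to 4 left 11 genes called higher and 5 lower, and PMEL at -2.47 (limma adjusted p = 0.277). The counts called, 188 higher and 231 lower, became 406 and 416 with library weights, 112 and 100 without the keratinocyte-poor wounds, 5 and 4 in L wounds alone, and 726 and 689 in R wounds alone. With 1 wound left out they ran from 110 to 236 higher and from 99 to 246 lower. Counts moved by over 1.5 times without non-diabetic replicate 1 (110 and 99) or 3 (110 and 110), and those called lower also without non-diabetic replicate 2 (142) or 4 (129) or diabetic replicate 3 (145) or 5 (152). Scaling to the upper quartile gave 156 higher and 260 lower. The voom fit of genes with a read in at least 6 wounds was added after seeing the data and gave limma adjusted p of 0.107 for DCT, 0.104 for TYRP1 and 0.335 for TYR. Depth limits TYR, MLANA, OCA2 and MC1R, which had 0 to 92 reads in a wound.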
